A study of Drosophila melanogaster with 4 samples.

Results

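The genes described here are 6 genes that supply the fly eye with its visual chromophore: ninaD, santa-maria, ninaB, pinta, ninaG and Pdh. They were chosen by name, as the probe sets whose platform annotation gives one of these symbols and no other. All 6 genes were found, each with 1 such probe set, among 11982 named genes on the array. Messenger RNA was measured with Affymetrix Drosophila Genome 2 arrays in eye discs dissected from pupae of Drosophila melanogaster raised at 29 °C, about 40 h after pupariation. The Yki discs came from GMR Gal4 animals crossed to UAS Yki, which overexpress Yorkie (Yki), a growth-promoting coactivator of transcription kept in check by the Hippo pathway. The control discs came from GMR Gal4 animals without UAS Yki, so both groups carried the driver, which is active in the developing eye and not in most other tissues. Each group had 2 arrays, which the titles call biological replicates. The labels do not give the number or sex of the animals dissected for a sample.

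Flies cannot make retinal from nothing. Dietary carotenoids are taken up by scavenger receptors, cleaved to retinal by a carotenoid oxygenase, carried by retinoid-binding proteins and converted by dehydrogenases and oxidases to the hydroxylated retinal that binds opsin in the photoreceptors. Loss of an uptake or cleavage gene leaves photoreceptors with little rhodopsin, because opsin without chromophore does not mature. Several of the later steps are known to take place in the retinal pigment cells that surround the photoreceptors.

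In discs with Yki, the signals of ninaB and Pdh were several-fold above those in control discs, those of ninaD, ninaG and santa-maria lay above them by less, and that of pinta overlapped between the groups. The Yki mean was 5.92-fold the control mean for ninaB, 3.14-fold for Pdh, 2.15-fold for ninaD, 1.43-fold for ninaG, 1.30-fold for santa-maria and 0.849-fold for pinta. None of the 6 genes passed the limma test at an adjusted p of 0.05 over all 18769 non-control probe sets, a threshold that 0.016% of probe sets passed. With each array's median subtracted, ninaB (limma adjusted p 5.7e-07) and Pdh (0.00534) passed, in a fit that gave all probe sets one common variance. At an unadjusted limma p under 0.05, 2 of the 6 (ninaB and Pdh) were higher with Yki and 0 were lower, where 7.19% of all named genes were higher and 8.07% lower. For 5 of the 6, both Yki arrays lay above both control arrays, as they did for 22.5% of all named genes. With each array's median subtracted this held for 4 of the 6, since santa-maria then overlapped between the groups. Both ninaB and Pdh were at least 2-fold higher in each of the 4 pairings of one Yki and one control array on the log2(intensity + 16) scale, as were 1.69% of named genes. The median log2 difference (Yki minus control, on log2(intensity + 16)) was 0.69 over the 6 genes and -0.01 over all named genes. Within replicates 1 and 2 the median of the 6 was 0.64 and 0.90. Differences within a replicate set arrays of the same number side by side, but the numbers were not taken as pairs. In a whole disc, more RNA per cell and more cells of the type that makes it cannot be told apart.

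**Figure D1:**
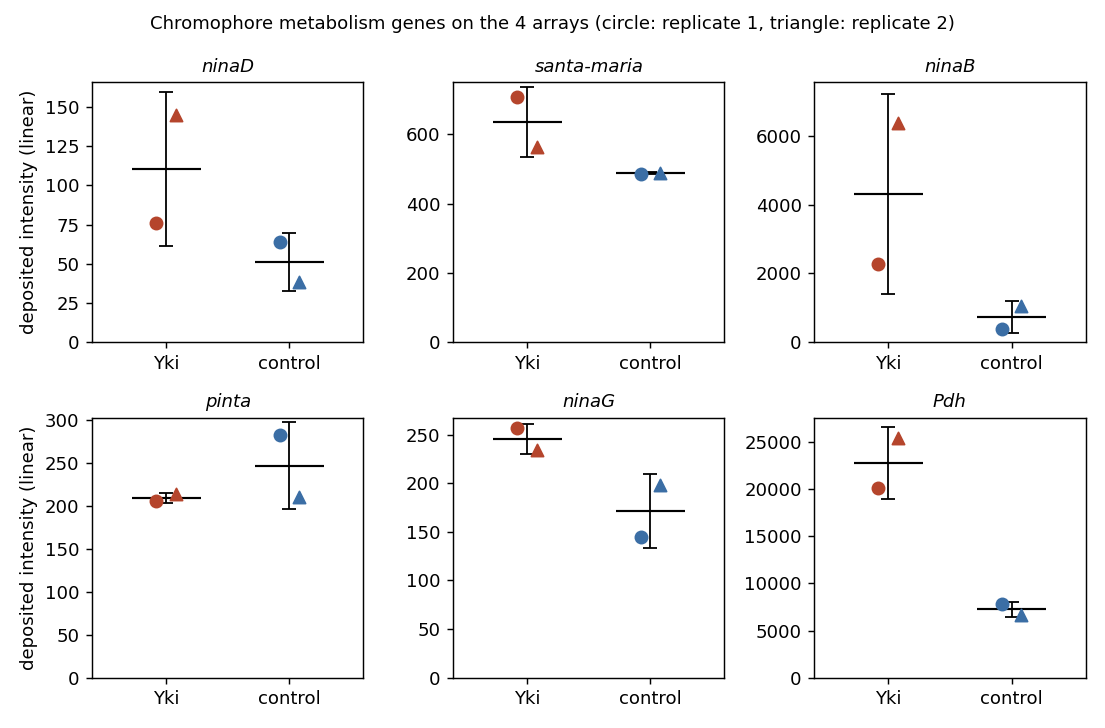
Deposited linear intensity (y axis, from 0) of each of the 6 genes on the 2 Yki and the 2 control arrays. Circles are replicate 1, triangles replicate 2, lines the group mean and bars 1 SD. In the deposited intensities the groups are apart for every gene except pinta (santa-maria overlaps with array medians subtracted), and widest apart for ninaB and Pdh.

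On these arrays yki, the overexpressed gene, had intensities of 26417 and 26183 in Yki discs, against 1285 and 1261 in control discs, as the labels say. The median intensity over the non-control probe sets was 81.1 and 101 on the Yki arrays and 79.4 and 97.1 on the control arrays, and between 22.2% and 28.3% of probe sets lay below 16, a level treated here as dim. Replicate arrays correlated across probe sets at 0.973 (Yki) and 0.975 (control) on the log2(intensity + 16) scale. The labels give no batch, slide or scan date. With 2 arrays against 2, an exact two-sided permutation test cannot give a p below 0.333, the value found for each of the 6 genes except pinta (0.667). All other p-values below come from limma. They rest on each probe set's spread within the groups of these 4 arrays, moderated by the spread over all probe sets. In the main fit this gave 2 residual and 3.03 prior degrees of freedom.

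The uptake step is carried by class B scavenger receptors, of which ninaD takes up carotenoids in the midgut and santa-maria acts in neurons and glia outside the retina. The ninaD probe set (1632705_at) had intensities of 75.8 and 145 in Yki discs, against 64.2 and 38.3 in control discs. Both Yki arrays were higher than both control arrays, but the lower Yki array was only 1.18-fold above the higher control array. The means were 110 ± 49.0 in Yki discs and 51.2 ± 18.3 in control discs (SD, n = 2 each). The log2 difference was 0.88 (95% interval -0.09 to 1.86, limma adjusted p 0.416), with 0.19 within replicate 1 and 1.57 within replicate 2. The difference did not pass the limma test and varied with single arrays: it was 0.48 without Yki replicate 2 (unadjusted limma p 0.270), 1.29 without Yki replicate 1 (unadjusted p 0.0280) and 0.60 without control replicate 2 (unadjusted p 0.269). It was 0.58 with a pseudocount of 64. With array medians subtracted its unadjusted p was 0.0456. Midgut markers other than Jon65Aiv lay at or below 75.9 on every array. At an unadjusted p under 0.05, 3 of the 9 measured were lower in Yki discs and 0 were higher. The 3 were alphaTry, Jon65Aiv and Jon25Bi, all digestive protease genes. By the same measure, 8.07% of all named genes were lower and 7.19% higher. The midgut list summed to 180 and 337 on the Yki arrays and to 520 and 1539 on the control arrays, with none of its genes at 0 and 2 of the 9 below 16 on every array. Most of the gap between these sums was Jon65Aiv, with 76.5 and 192 in Yki discs against 301 and 1313 in control discs. The part of gut RNA in the ninaD signal was not tested.

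The santa-maria probe set (1635522_a_at) had intensities of 708 and 564 in Yki discs, against 487 and 489 in control discs. The control arrays were nearly equal and both Yki arrays lay above them, although the groups overlapped once each array's median was subtracted. The log2 difference was 0.36 (95% interval -0.26 to 0.98, limma adjusted p 0.591), so a rise of nearly 2-fold and a small fall both lie within the interval. Of the 11 other measured genes of the scavenger receptor family, 1 was higher at an unadjusted p under 0.05, 0 were lower and 10 did not reach it. Over all named genes, 7.19% were higher and 8.07% lower at that threshold. That gene, Snmp1, which is known for pheromone detection in antennal neurons, had low intensities of 40.2 and 44.1 in Yki discs against 25.9 and 8.68 in control discs. The family's median log2 difference was 0.11, and -0.09 and 0.45 within replicates 1 and 2.

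The cleavage step belongs to ninaB, the carotenoid oxygenase that cuts carotenoids and isomerises the product to give retinal. Its probe set (1625743_at) had intensities of 2261 and 6362 in Yki discs, against 399 and 1058 in control discs. Both Yki arrays were above both control arrays, the closest pair being 2.14-fold apart. Within each group the replicate 2 array was well above the replicate 1 array, so the spread inside a group was large. The means were 4311 ± 2899 in Yki discs and 728 ± 466 in control discs (SD, n = 2 each). The log2 difference was 2.51 (SE 0.67, 95% interval 0.78 to 4.24), which 99.6% of named genes lay below. It had an unadjusted limma p of 0.0134 and an adjusted p of 0.268. The difference was 2.46 within replicate 1 and 2.57 within replicate 2. Without Yki replicate 2 it was 1.77 (unadjusted limma p 0.0628), and without control replicate 1 it was 1.83 (unadjusted limma p 0.0626).

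Retinoid carriage is represented by pinta, a CRAL-TRIO domain protein that binds retinoids in the retinal pigment cells. Its probe set (1622896_at) had intensities of 205 and 214 in Yki discs, against 283 and 211 in control discs. One control array stood above the rest and the other lay between the Yki arrays. The log2 difference was -0.21 (95% interval -0.86 to 0.44, limma adjusted p 0.791), with -0.43 within replicate 1 and 0.02 within replicate 2. The interval leaves out a rise as large as the 3.14-fold seen for Pdh, but the difference between the genes was not tested.

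Of the 23 other CRAL-TRIO family genes measured, 4 were higher at an unadjusted limma p under 0.05, 0 were lower and 19 did not reach it. Among all named genes the shares were 7.19% higher and 8.07% lower. CG2663 had intensities of 8173 and 14553 in Yki discs, against 3427 and 1504 in control discs (log2 difference 2.26, adjusted p 0.203). CG32407 had 965 and 1171 in Yki discs, against 366 and 394 in control discs (log2 difference 1.45, adjusted p 0.148). CG3091 and CG32485 were the other 2, with log2 differences of 1.29 and 0.64. The arrays of the groups did not overlap for any of the 4. The family median was 0.26, with 0.03 within replicate 1 and 0.76 within replicate 2. Cralbp, named for the vertebrate retinal-binding protein it resembles, had 817 and 1985 in Yki discs, against 1220 and 506 in control discs, which overlap.

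The conversion steps are represented by ninaG and Pdh. ninaG encodes an oxidoreductase of the glucose-methanol-choline (GMC) family needed to make the hydroxylated chromophore. Its probe set (1635148_at) had intensities of 257 and 234 in Yki discs, against 145 and 198 in control discs. Both Yki arrays lay above both control arrays, by 1.18-fold at the closest pair. The log2 difference was 0.49 (95% interval -0.17 to 1.15, limma adjusted p 0.495), with 0.76 within replicate 1 and 0.22 within replicate 2. Of the 5 other GMC oxidoreductase genes measured, 1 was higher and 1 lower at an unadjusted p under 0.05, against 7.19% and 8.07% of all named genes. CG9517 had 389 and 433 in Yki discs, against 254 and 93.7 in control discs. The ecdysone oxidase gene Eo had 2.01 and 3.67 in Yki discs, against 34.2 and 17.3 in control discs, near or below the pseudocount of 16.

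Pdh encodes a retinol dehydrogenase of the pigment cells, which acts in the cycle that regenerates the chromophore. Its probe set (1639269_a_at) had intensities of 20071 and 25451 in Yki discs, against 7797 and 6693 in control discs. Both Yki arrays were above both control arrays, by 2.57-fold at the closest pair and 3.80-fold at the widest. The means were 22761 ± 3804 in Yki discs and 7245 ± 780 in control discs (SD, n = 2 each). The log2 difference was 1.64 (SE 0.25, 95% interval 0.99 to 2.29), which 98.3% of named genes lay below. It had an unadjusted limma p of 0.00127 and an adjusted p of 0.143. It was 1.36 within replicate 1 and 1.92 within replicate 2, and leaving out each array in turn gave differences between 1.47 and 1.81, with an unadjusted p between 0.00397 and 0.0111. On the Yki arrays only 41 and 5 probe sets were brighter than Pdh, against 284 and 288 on the control arrays, so its signal in Yki discs was close to the brightest the arrays recorded, a range in which an array can understate a difference. A second probe set (1626660_at) is annotated to both CG15024 and Pdh and therefore stands for neither. It had low intensities, of 59.5 and 55.1 in Yki discs against 30.2 and 45.5 in control discs.

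The retinol dehydrogenase gene rdhB, also known to act in pigment cells during chromophore synthesis, had intensities of 6644 and 9730 in Yki discs, against 5070 and 2103 in control discs. The groups did not overlap, and the log2 difference was 1.30 (unadjusted limma p 0.0443, adjusted p 0.366). CG4842, listed with the alcohol dehydrogenase-type genes to which Pdh belongs, had 1733 and 5934 in Yki discs, against 168 and 200 in control discs. Its log2 difference was 4.02 (SE 0.60), with an unadjusted limma p of 0.00112 and an adjusted p of 0.141. The only other measured gene of that list, Fbp2, a fat body protein, overlapped between the groups, with 4709 and 5667 in Yki discs and 8956 and 5085 in control discs.

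**Figure D2:**
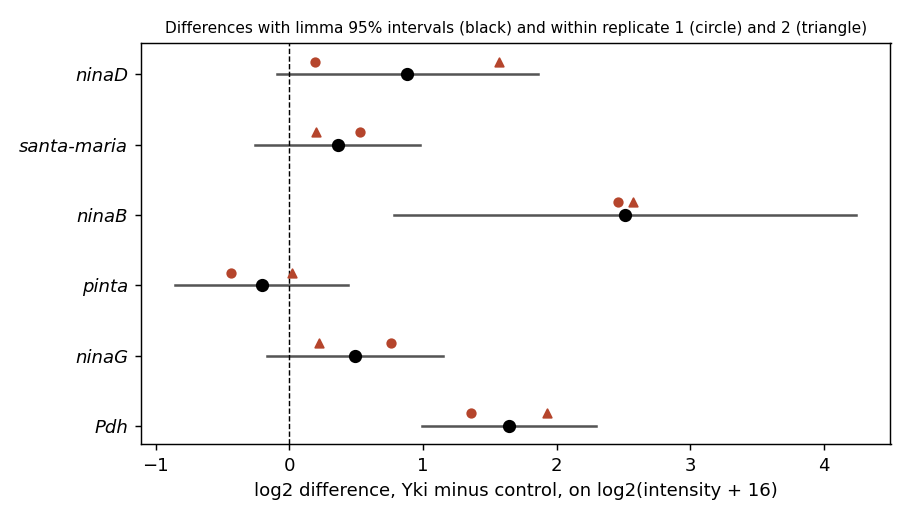
Log2 difference, Yki minus control, on log2(intensity + 16) (x axis) for the 6 genes, with the limma estimate and 95% interval in black and the differences within replicate 1 (circle) and replicate 2 (triangle) above it. The intervals of ninaB (0.78 to 4.24) and Pdh (0.99 to 2.29) lie above 0 and the other 4 include 0.

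In the list of other retinoid and lipid transport genes, which also holds lipoprotein receptors and the dehydrogenase gene rdhB, 3 of 11 measured were higher with Yki at an unadjusted limma p under 0.05, 1 was lower and 7 did not reach it. Besides rdhB, the higher ones were Apoltp, a subunit of the particle that loads lipids onto the blood carrier lipophorin, and GLaz, a lipocalin. Apoltp had 616 and 508 in Yki discs, against 325 and 346 in control discs. GLaz had 1327 and 1813 in Yki discs, against 966 and 802 in control discs. Karl, another lipocalin, was lower, with 185 and 173 in Yki discs against 254 and 329 in control discs. The main lipophorin gene apolpp overlapped between the groups, with 7059 and 6525 in Yki discs and 9431 and 6931 in control discs. Of the opsin and opsin chaperone list, 2 genes are given here. The opsin gene Rh7 had 115 and 136 in Yki discs against 64.7 and 85.0 in control discs (log2 difference 0.65, unadjusted limma p 0.0489). The chaperone gene Cnx99A had 5642 and 5028 in Yki discs and 4834 and 5105 in control discs, which overlap. The other 10 listed opsin and chaperone genes were not analysed here. Over all 53 distinct genes of these lists, with the 6 left out, 11 were higher, 2 were lower and 40 did not reach an unadjusted p under 0.05, so that 24.5% did, against 15.3% of all named genes in either direction. Fewer of the 53 reached it when any 1 array was left out. With a pseudocount of 1 only 5 of the 53 did, beside 2192 of all 18769 non-control probe sets, which is no higher a share. In the main fit 2472 of those probe sets did. The higher share of the 53 was therefore not kept in every setting. None of the 53 passed the adjusted threshold over all probe sets. Their median log2 difference was 0.25, with 0.08 within replicate 1 and 0.59 within replicate 2.

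Markers of the cells that hold these enzymes, and of other tissues, also differed between the groups. They were counted at an unadjusted limma p under 0.05, which 7.19% of all named genes reached as higher and 8.07% as lower. Among photoreceptor markers 8 of 11 were higher with Yki at an unadjusted limma p under 0.05 and 0 were lower, with a median log2 difference of 1.18. Their intensities summed to 19141 and 27593 on the Yki arrays and to 9746 and 13274 on the control arrays. The channel genes trp and trpl had log2 differences of 2.06 and 1.45, the scaffold gene inaD 1.52 and the matrix gene eys 1.66. Arr1 (0.12) and elav (0.19) overlapped between the groups, and rdgA (0.90) did not overlap but did not reach that p. Among pigment cell markers 3 of 8 were higher (bw, cd and cn, of pigment transport and synthesis) and 2 lower (the homeobox genes B-H1 and B-H2), and the list summed to 18097 and 17185 on the Yki arrays and to 8980 and 12565 on the control arrays. Among cone cell markers 1 of 4 was higher (the lens gene Cpr72Ec) and 1 lower (sv). The list summed to 18936 and 21938 on the Yki arrays and to 9312 and 10672 on the control arrays. Most of these sums was Cpr72Ec, with 17742 and 21015 in Yki discs against 8413 and 9124 in control discs. The other genes of the list, ct and pros, overlapped between the groups, and the list median was 0.09. Among glial markers 2 of 7 were higher (moody and Mdr65, of the blood-brain barrier) and 1 lower (gcm). The list summed to 15201 and 17776 on the Yki arrays and to 9786 and 11869 on the control arrays. Much of that gap was moody, with 6491 and 7650 in Yki discs against 2277 and 2699 in control discs. The glial median was 0.01, and repo, nrv2 and loco overlapped between the groups. Of 4 neuronal markers 1, the synaptic vesicle gene nSyb, was higher and the others overlapped. Among muscle markers 7 of 8 were higher and 0 lower, with sums of 24111 and 38658 on the Yki arrays and of 8462 and 14245 on the control arrays. Of the fat body markers 0 of 3 reached an unadjusted p under 0.05, and of the haemocyte markers 1 of 5 did, He, which was lower. No marker in any list was at 0, which does not show that each was detected. The midgut marker Mal-A1, for example, had 1.84 and 1.12 in Yki discs against 3.22 and 6.27 in control discs. Whether any of these cell types had a part in the differences of the 6 genes was not tested.

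**Figure D3:**
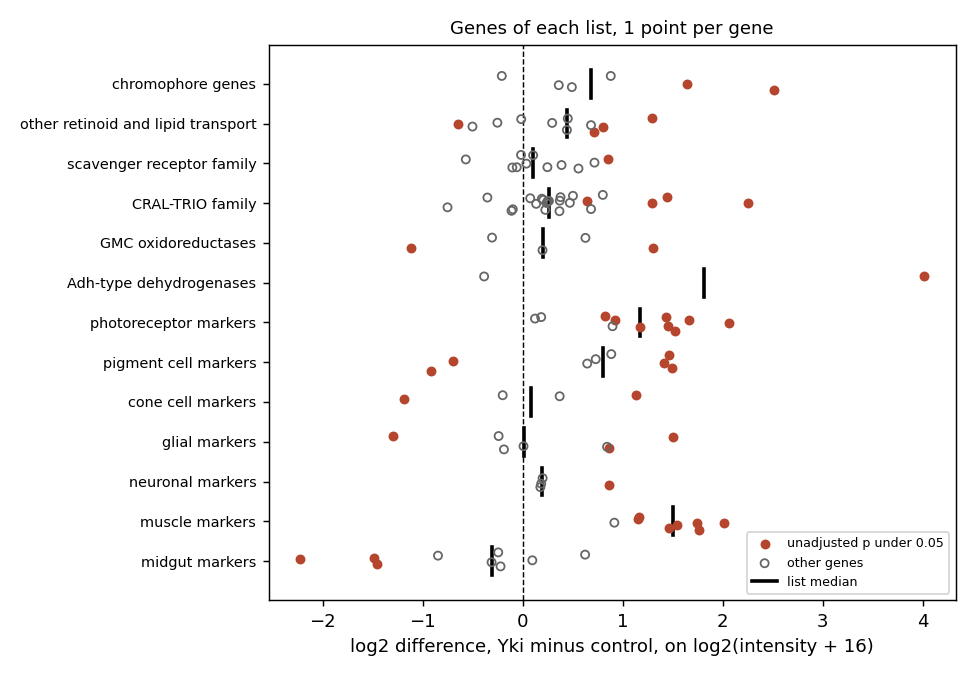
Log2 difference, Yki minus control, on log2(intensity + 16) (x axis) for every measured gene of the lists shown (rows). Points are filled where the unadjusted limma p was under 0.05, with a black bar at the list median. The fat body, haemocyte, and opsin and chaperone lists are not shown. The medians are 0.69 for the chromophore genes, 1.18 for photoreceptor markers and 1.50 for muscle markers, against -0.31 for midgut markers.

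The genes whose values over the 4 arrays were most like those of each gene were found among 7827 other named genes with a mean intensity of at least 100, by the root mean square (RMS) difference of profiles centred on their own means on the log2(intensity + 16) scale. Nearest to Pdh were SmydA-8 (RMS difference 0.04), the glutathione S-transferase gene GstD9 (0.04) and CG8301 (0.06). GstD9 had 1760 and 2291 in Yki discs, against 641 and 562 in control discs. Nearest to ninaB were CG15515 (0.10), CG1143 (0.20) and yellow-b (0.22), of the yellow family. All 3 had the higher replicate 2 array in both groups, as ninaB did, a likeness that the matching itself selects for. yellow-b had 1468 and 2992 in Yki discs, against 278 and 612 in control discs. For pinta, whose values differed little, the nearest were tzn, Pex5 and Gapdh1 (0.01 to 0.02). For ninaG they were alpha-Man-Ia, HPS4 and CG9717 (0.02 each), and for santa-maria Eaat2, CG5281 and Sec24CD (0.02 to 0.03). With 4 arrays such likeness is a description of these samples, and genes with small differences have many near neighbours. The mean of ninaD was under 100 and it was not matched.

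**Figure D4:**
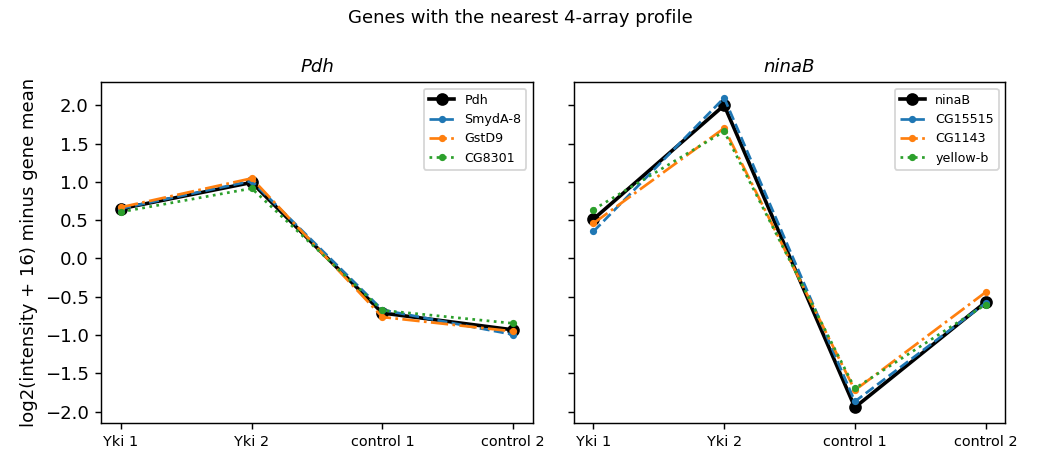
Log2(intensity + 16) minus the gene's own mean (y axis) on the 2 Yki and the 2 control arrays for Pdh, for ninaB and for the 3 genes nearest to each. Pdh and its nearest genes are high on both Yki arrays, while ninaB and its nearest genes are also higher on the replicate 2 array within each group. The nearest genes were picked for this likeness.

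By gene order in the RefSeq table (assembly Release 6 plus ISO1 MT), the nearest 2 protein-coding genes on each side of each of the 6 genes gave 24 neighbours, of which 23 were measured. At an unadjusted limma p under 0.05, 0 of them were higher with Yki and 3 were lower: rdo near ninaD (log2 difference -1.15, p 0.00700), Nop56 near pinta (-0.79, p 0.0282) and Tcs3 beside Pdh (-0.70, p 0.0359). Over all named genes, 7.19% were higher and 8.07% lower at that threshold. The log2 differences of the 23 neighbours ran from -1.15 to 0.75. For 2 of the 6 genes, a neighbour stands in the lists used here for this pathway, its protein families or its cell types. ninaD lies between the arrestin gene Arr1 and CG31741, a scavenger receptor family gene. Arr1 had 50.0 and 89.2 in Yki discs and 87.5 and 40.5 in control discs, which overlap. CG31741 had 6.78 and 29.2 in Yki discs, against 3.48 and 3.52 in control discs, dim on all but 1 array. On one side of santa-maria lie CG5973 and then CG5958, both of the CRAL-TRIO family, and on the other Gr28a, a gustatory receptor gene. CG5973 had 415 and 628 in Yki discs and 633 and 305 in control discs, which overlap, and CG5958 had 1141 and 891 in Yki discs, against 1455 and 1146 in control discs. The genes next to the others on each side were Tcs3 and ringer (0.33) for Pdh, f-cup (-0.13) and Adgf-D (-0.19) for ninaB, mats (-0.22) and CG13847 (0.75) for pinta, and Sptz (0.14) and CG45676, which was not analysed here, for ninaG.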

How the data were processed

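The deposited table holds 1 linear intensity per probe set and array (18952 probe sets). The authors made it with Affymetrix Expression Console, per the submitters' processing notes. How they summarised probes and called detection is not stated in those sources. The intensities had been scaled by the authors before deposit: the mean after trimming 2% at each end is 500.01 on every array. All columns were used (0 left out).

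Gene names were given through the platform annotation and a RefSeq gene table, with 13544 of the 13647 single-symbol probe sets matched. Where a gene has several probe sets, the brightest by mean stands for it. limma 3.58.1 in R 4.3.3 (lmFit, eBayes) was run on log2(intensity + 16) over 18769 non-control probe sets, with Benjamini-Hochberg adjustment over all of them and group as the only term. Fold changes on that scale understate changes of dim probe sets. Groups and replicate numbers came from the sample titles. Nothing in the titles says that a replicate number marks a batch, so the numbers were not taken as pairs. Same-numbered arrays deviated from their group means with a correlation of 0.039 across probe sets. That value does not settle pairing for single genes. For ninaB the SE was 0.27 with the replicate block and 0.67 in the main fit. The members, gene lists and tests were chosen with earlier results of these data known. The text names the 6 genes, yki, the 3 genes most like each, and from each list up to 4 genes by size with an unadjusted p under 0.05 and no overlap, or the 2 with the smallest p. Cralbp, apolpp, Cnx99A, B-H1, ct, pros, repo, nrv2, loco, Mal-A1, elav and rdgA fall outside this rule. They were chosen once their values were known, and neighbouring genes were taken by gene order. On simulated data (20 runs of 18769 probe sets, 200 of them changed) the share of true differences called was 0% at 1 log2 unit, 0.597% at 2 and 49.7% at 4. That share depends on how many probe sets truly differ, which is not known for the discs, so it need not hold for the real comparison. No sequences or promoters were used, so the planned motif search was not run. The 4 arrays limit the precision.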

Additional observations from a re-analysis of the deposited data

How the results depend on the processing

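Each result was recomputed with a pseudocount of 1 or 64, with array medians subtracted, with quantile normalization, with trended and robust moderation, with probe sets of mean intensity of at least 64, with the replicate number as a block, with adjustment over genes, and without each array in turn. No difference of the 6 genes changed direction under any of these. With array medians subtracted ninaB (2.48, adjusted p 5.7e-07) and Pdh (1.61, adjusted p 0.00534) passed limma's threshold, in a fit whose moderation gave every probe set the same SE of 0.42. Otherwise the adjusted p stayed between 0.0727 and 0.496 for Pdh and between 0.0677 and 0.653 for ninaB. The fit with the replicate block gave ninaB an adjusted p of 0.0677 and Pdh 0.126, and it called none of the 6 genes. The number of members with both Yki arrays above both control arrays was 4 with array medians subtracted and 5 under every other setting. Their median was 0.49 with a pseudocount of 64. The number of probe sets called, 3, became 0 with a pseudocount of 1, 874 with array medians subtracted, 12 with quantile normalization, 20 with trended and robust moderation, 66 with the filter, 27 with the replicate block and 12 over genes, and it was 0 to 0 without single arrays. Where limma called 0, the probe sets with an unadjusted p under 0.05 numbered 2192 with a pseudocount of 1 and 1486 to 2635 without single arrays. The number of pathway list genes with an unadjusted p under 0.05, 13, became 5 with a pseudocount of 1 and 7 with array medians subtracted, and was 7 to 8 without single arrays. Other probe sets could not stand in, as each of the 6 genes has 1. The causes of these shifts were not tested.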
